A study of Homo sapiens with 12 samples.

Results

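Solute carriers bring nutrients and metal ions across membranes. The genes described here are the protein-coding genes whose symbol starts with SLC1A, SLC2A, SLC3A, SLC5A, SLC7A, SLC16A, SLC30A, SLC38A, SLC39A or SLC43A. There were 104 such genes among 20050 protein-coding genes of the RefSeq gene table (GRCh38). The symbols of 3 of them fit the rule although their names do not denote carriers. SLC2A4RG is named as a regulator of SLC2A4, SLC7A6OS as a gene on the strand opposite SLC7A6, and SLC30A4-AS1 as an antisense gene that the table lists as protein-coding. The others were 37 amino acid carriers (SLC1A, SLC3A, SLC7A, SLC38A and SLC43A), 26 genes of the sugar families SLC2A and SLC5A, 14 of the monocarboxylate family SLC16A and 24 of the zinc families SLC30A and SLC39A. Family names stand here for the main substrate. Some members carry other compounds, such as SLC5A6, which carries vitamins.

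The experiment asked which mRNAs may hold 1-methylguanosine (m1G), a modified base known mainly from tRNA. Polyadenylated RNA of PANC-1, a human pancreatic ductal adenocarcinoma line, was fragmented and precipitated with an m1G antibody (IP) or kept as input. The 12 libraries, all of experiment 2, formed 4 groups of 3: control input, control IP, and input and IP of cells in which siRNA had depleted the tRNA methyltransferase TRMT5 for 4 days. All groups come from this line and are labelled only as control (WT) or TRMT5 KD. The labels do not state the siRNA sequences, the control siRNA or whether replicates were separate cultures. The protocol also names a GFP antibody, and no library is labelled with it here.

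Both deposited files are peak lists of the whole series. Values per library and a comparison with the knockdown are absent from their columns, so neither replicate error nor an effect of TRMT5 could be computed, the read depth is unknown, and every statement below is a description without a test. The MetDiff list gives each peak as exon blocks with an FDR (false discovery rate) and with a ratio. The ratio is called fold here and was taken to be IP divided by input, as such tables are usually laid out, although the file has no header. The MACS2 list gives 1-base summits with a value read as −log10 of q. All of these values are the authors'. A peak or summit was counted for a gene when it lay inside the gene span, introns included. Without a genome sequence or exon annotation, whether a peak lies in coding or untranslated sequence could not be analysed here. RNA levels were not analysed either, so a gene without a peak may be one these cells do not express. In bulk RNA, fewer cells with a transcript and less of it in each cell cannot be told apart.

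The families divide by cargo. SLC7A light chains such as SLC7A5 work as heterodimers with the heavy chain SLC3A2 and exchange large neutral amino acids, SLC1A5 and the SLC38A proteins take up glutamine and other small neutral amino acids, and leucine and glutamine bear on growth signalling through mTORC1. SLC2A proteins carry glucose and related sugars by facilitated diffusion, SLC5A proteins couple their cargo to sodium, and SLC16A proteins carry lactate and other monocarboxylates with protons. SLC39A (ZIP) proteins bring zinc into the cytosol, and SLC30A (ZnT) proteins move it out of the cytosol into organelles or out of the cell. Pancreatic ductal tumour cells are known for heavy use of glutamine and glucose and for lactate export.

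Among the 104 genes, 27 (26%) had a MetDiff peak, where 21.3% of all protein-coding genes did. A summit lay in 10 of them (9.62%), against 9.46% of all protein-coding genes. Both kinds were present in 8, against a background of 8.07% of genes, while 19 had MetDiff peaks alone, SLC2A4RG and SLC38A2 had summits alone, and 75 had neither. Of all 20050 protein-coding genes, 2648 had MetDiff peaks alone, 278 had summits alone and 15506 had neither. The share of the whole group with either kind of peak was thus near the background. With an FDR under 0.01 the MetDiff count was again 27, beside 20.3% of all genes, and with a −log10 q of at least 10 there were 8 genes with a summit, beside 6.93%. Counting every listed peak inside the span, on either strand, MetDiff peaks numbered 3 or more in 10 of the 104 genes and in 6.74% of all genes. The 61 distinct MetDiff peaks had folds from 1.31 to 15.2 with a median of 4.15, beside 4.47 over the 9225 peaks inside protein-coding genes. Taking the highest fold of each gene, the median was 5.33 over the 27 genes and 6.18 over the 4266 protein-coding genes with a peak. The median −log10 q of their 32 summits was 17.7, beside 13.9 for summits of all protein-coding genes.

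By cargo, MetDiff peaks were found in 9 of 24 zinc carriers (37.5%), 7 of 26 genes of the sugar families (26.9%), 8 of 37 amino acid carriers (21.6%) and 2 of 14 SLC16A genes (14.3%). Summits were found in 5 amino acid carriers (13.5%), 2 zinc carriers (8.33%), 1 SLC16A gene (7.14%) and 1 gene of the sugar families (3.85%). The order of the classes therefore differed between the lists. Within the zinc carriers, MetDiff peaks were found in 8 of 14 SLC39A genes (57.1%) and 1 of 10 SLC30A genes. SLC5A had 4 of 12, SLC2A 3 of 14, SLC1A 2 of 7, SLC7A 2 of 13, SLC38A 2 of 12, SLC43A 1 of 3 and SLC3A 1 of 2. These counts are small, and no difference between classes or families was tested. The 282 other SLC genes had MetDiff peaks in 64 (22.7%) and summits in 25 (8.87%). Of all protein-coding genes, 21.3% had a MetDiff peak and 9.46% had a summit.

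**Figure D1:**
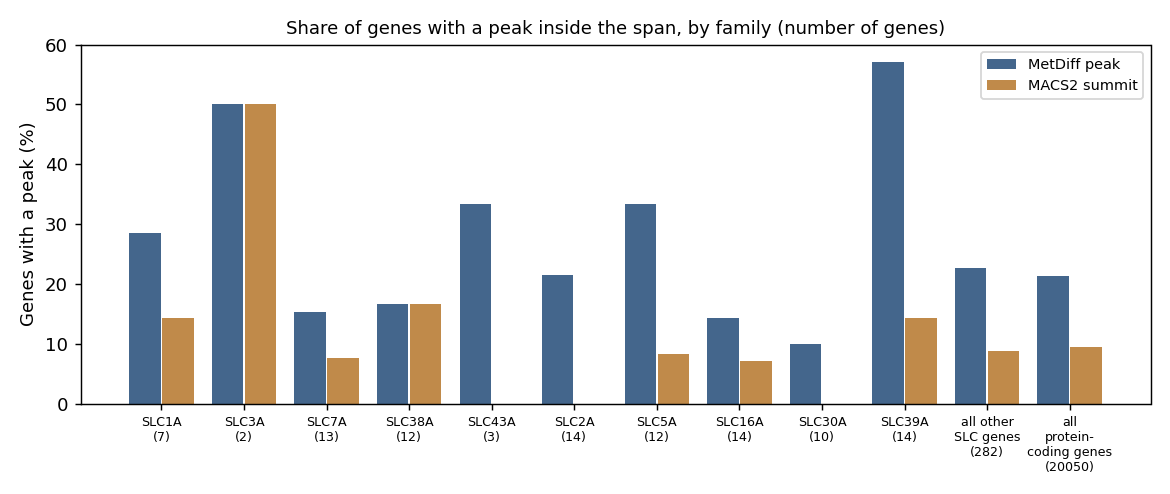
Share of genes, in percent, with a MetDiff peak (blue) or a MACS2 summit (brown) inside the span, for each carrier family with its number of genes in brackets, for all other SLC genes and for all protein-coding genes. The SLC39A bar for MetDiff peaks stands at 57.1%, and SLC2A, SLC30A and SLC43A have no summit bar.

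A few peaks began so close to a transcript start that their sequence could be read from the RefSeq promoter table (GRCh38.p14), which ends 50 bases after the start. The last 30 bases of that window are shown for 4 carriers to display the RNA these peaks cover. They run 5′ to 3′ on the strand of the gene, and capitals mark bases inside the MetDiff peak.
SLC38A10: ggcAGCTGAGTTGGGCTGAGGTGTCCCTAG
SLC2A6: gcCCCGAGAGAGACCCGGCCATGCAGGAGC
SLC3A2: cacccagtgcatgtggcaggagcGGTGAGA
SLC16A3: GCGAGAGGCGGCGAGAGGCGGGCTGAGGCG
The stretch of SLC16A3 (chr17:82229062-82229091, plus strand) lay wholly inside its peak and held 18 guanines in 30 bases, a number reached by 2.36% of the 22199 start windows of protein-coding genes. SLC38A10 (chr17:81295258-81295287, minus strand) had 11 guanines in the 27 bases inside the peak, and SLC2A6 (chr9:133479050-133479079, minus strand) had 10 in 28. For SLC3A2 (chr11:62856129-62856158, plus strand), 7 bases fell inside the peak, 4 of them guanine. The median of the start windows was 10 guanines in 30 bases. An antibody peak is wider than a base, so these letters name no modified guanine.

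SLC7A5 (LAT1, the light chain that exchanges large neutral amino acids) had the strongest summit of all these genes. This summit, at position 87869441 of chromosome 16, had −log10 q of 73.6 and lay 66 bases after the annotated start of the transcript, inside a MetDiff peak (87869259 to 87869457, minus strand) whose fold was 4.86 (FDR 1.91e-05). Of the 1896 protein-coding genes with a summit, 34 (1.79%) reached that value. The other 4 SLC7A5 summits lay together close to the 3′ end of the span, with −log10 q of 54.6, 32.3, 15.2 and 13.6. There too lay its other 3 MetDiff peaks, with folds of 5.66 (87830618 to 87830817), 3.46 and 2.11. SLC7A5 was thus marked at both ends. Its highest fold of 5.66, at the 3′ end, was reached by 55.6% of genes with a MetDiff peak. Its rank by summit −log10 q and its rank by fold were thus far apart, but they come from different lists, gene sets and ends of the gene.

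SLC3A2 (the CD98 heavy chain and partner of SLC7A5) had 3 summits on chromosome 11. The strongest, with −log10 q of 35.2 at position 62880961, lay 65 bases after an annotated internal start. The others had 15.7 (62884431) and 4.42 (62888371). Its single MetDiff peak lay elsewhere, in 2 exon blocks between 62856152 and 62870764, whose fold was 4.61 (FDR 0.00234), and the nearest summit of the gene was 10197 bases from those blocks. The lists therefore marked different parts of SLC3A2, while they met at both ends of SLC7A5.

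SLC38A10, a member of the sodium-coupled neutral amino acid family, carried more MetDiff peaks than any other of the 104 genes. Its 8 peaks on chromosome 17 had folds of 8.95, 8.40, 6.20, 3.81, 3.23, 2.57, 2.51 and 2.18, and 108 protein-coding genes had at least as many. The highest fold belonged to 2 exon blocks between 81260249 and 81270921 (FDR 0.000316). The next lay at the start of the gene (81295085 to 81295284, FDR 0.00813), the peak whose sequence is printed above. Its 6 summits had −log10 q of 47.7, 24.2, 22.6, 21.7, 18.1 and 12.7. Of these, 5 lay within 150 bases of an exon block of the gene, and the weakest, at 81283612, lay 11473 bases away. Most of the peaks lay toward the 3′ end, with midpoints at 84.0% to 98.4% of the span from the 5′ end. The peak at the start and the peak with the highest fold (midpoint at 58.9%) lay apart from these. Most summits also lay toward the 3′ end, at 83.2% to 97.4%, with others at 69.0% and 23.2%.

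SLC1A5 (ASCT2, a glutamine carrier) had 1 MetDiff peak (chromosome 19, 46787699 to 46787898) that had a fold of 5.09 (FDR 0.00617). Its stronger summit, with −log10 q of 10.1, fell on the last base of that peak by coordinate, 46787898, and the weaker one (5.94) lay 11940 bases from it, near the 3′ end of the gene. SLC38A2 (SNAT2, another glutamine carrier) had a single summit of 9.39 at 46360222 on chromosome 12 and was not marked by MetDiff. MetDiff peaks without a summit were found in 4 amino acid carriers (SLC1A4, SLC7A6, SLC38A12 and SLC43A2), and 28 of the 37 had neither. Of all 20050 protein-coding genes, 2648 had MetDiff peaks without a summit and 15506 had neither. SLC43A2 (LAT4, a uniporter of branched-chain and aromatic amino acids) had a fold of 5.89 (chromosome 17, 1575242 to 1575391), and SLC38A12 one of 4.96 in a peak 273 bases from the 3′ end of its span. SLC1A4 (ASCT1, a carrier of serine and alanine) had 4.86 (chromosome 2, 65023565 to 65023665) and 2.90, both near the 3′ end of the span. Over the class, the highest folds of the 8 genes ran from 1.88 to 8.95.

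The lowest value belonged to SLC7A6, a light chain that exchanges cationic for neutral amino acids, and its peak is not listed on its strand. The peak, with a fold of 1.88 (chromosome 16, 68301078 to 68301178, FDR 3.89e-09), is listed on the minus strand, SLC7A6 lies on the plus strand, and SLC7A6OS, which overlaps it, on the minus strand. It was the lowest FDR among the 61 peaks. With peaks listed on the strand opposite the gene left out, 26 of the 104 genes had a MetDiff peak, with SLC7A6 as the gene lost. No share of all protein-coding genes under this rule is given here, so this count has no like background. These 26 include SLC16A13, SLC39A4 and SLC39A14, whose strand the promoter table does not give.

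**Figure D2:**
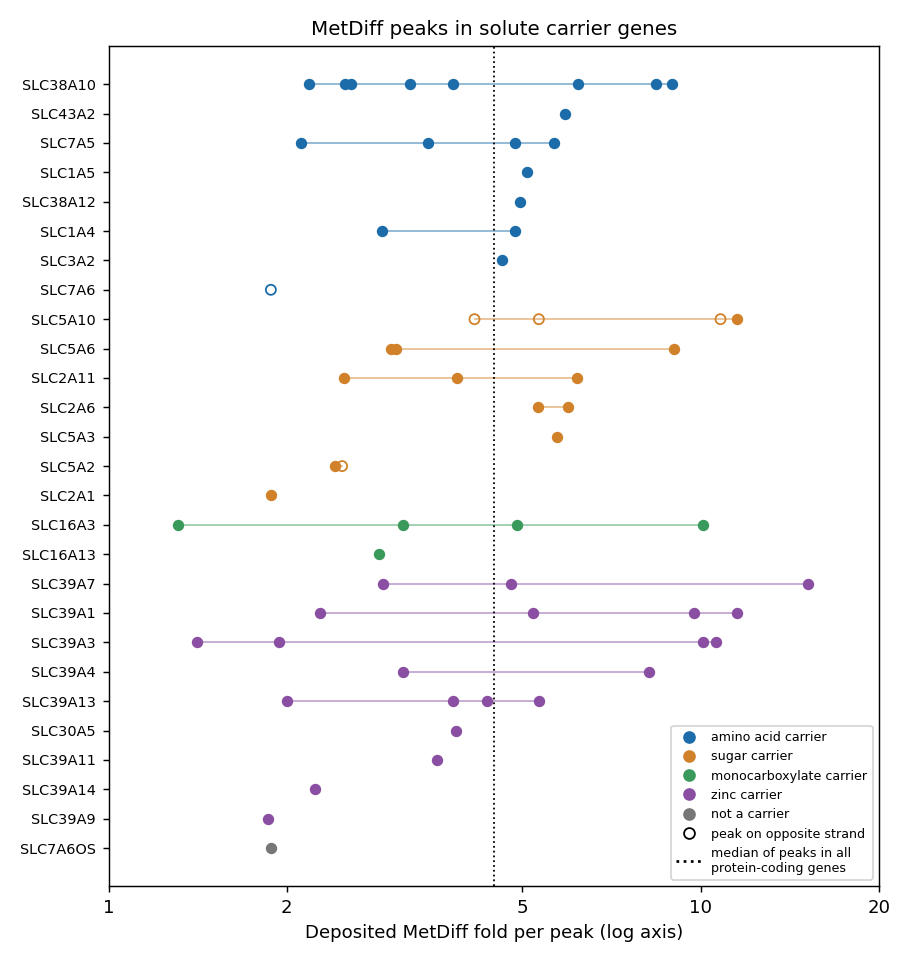
Deposited MetDiff fold of every peak inside the 27 genes with one (log axis), 1 point per peak and 1 line per gene, coloured by class, with open circles for peaks listed on the strand opposite the gene and a dotted line at 4.47, the median of peaks in all protein-coding genes. SLC39A7 reaches 15.2, SLC38A10 has 8 points, and the open circles fall in SLC5A10, SLC5A2 and SLC7A6.

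In the sugar families, 3 of 14 facilitative SLC2A genes (21.4%) had a MetDiff peak, a share at the 21.3% of all protein-coding genes. SLC2A1 (GLUT1, the widely expressed glucose carrier) had a single peak 50 bases after its start (chromosome 1, 42958719 to 42958818) at a fold of 1.88 (FDR 4.37e-05), a value that 97.7% of genes with a peak reached. SLC2A6 (GLUT6) had folds of 5.97 (chromosome 9, 133475096 to 133475482) and 5.32, the latter at its start with the sequence printed above. SLC2A11 (GLUT11) had 3 peaks on chromosome 22 with folds of 6.18, 3.87 and 2.50. The first and the second of these overlapped each other and stood under different Ensembl gene IDs, so they describe 1 place. None of the 14 SLC2A genes had a summit, where 9.46% of all protein-coding genes had one.

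SLC5A6, the sodium-dependent carrier of biotin and pantothenate, had 3 peaks on chromosome 2 with folds of 9.0 (27204612 to 27204830), 3.06 and 3.0. All were listed with the same FDR of 1.95e-05. SLC5A3, the myo-inositol carrier, had a fold of 5.71 (chromosome 21, 34098633 to 34098733, FDR 8.71e-05) and the only summit of the class, with −log10 q of 5.37, which lay 9894 bases from that peak. MRPS6 spans both places, and reads of SLC5A3 and MRPS6 cannot be told apart by position here.

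For SLC5A10 and SLC5A2, better known from kidney, the peaks were shared with a gene on the other strand. SLC5A10 (chromosome 17) had 1 peak on its own strand, 18971058 to 18971207, at a fold of 11.5 (FDR 0.000468), the highest fold of the class. A peak on the opposite strand, on which FAM83G also lies across this place, covered 18970985 to 18971184 with a fold of 10.8, and 2 more on that strand had 5.33 and 4.15. SLC5A2 (chromosome 16) had peaks of 2.41 on its own strand (31490612 to 31490711) and 2.48 on the other (31490607 to 31490706), where RUSF1 overlaps it. The list gives the peaks of each strand different Ensembl gene IDs, in SLC5A10 and in SLC5A2 alike. Those IDs could not be paired with symbols here, and the labels do not state whether the counting used strand. The RNA behind these peaks was therefore not settled. Counting only peaks that lie in 1 gene, 21 of the 104 genes had a MetDiff peak, beside 18.2% of all protein-coding genes, and 9 had a summit, beside 8.25%. By that rule the sugar families had 4 genes with a MetDiff peak (SLC2A1, SLC2A6, SLC2A11 and SLC5A6) in place of 7, and no summit.

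SLC16A3 (MCT4, known for lactate export from glycolytic cells) held nearly all values of the monocarboxylate family. It had 4 MetDiff peaks on chromosome 17 with folds of 10.1 (82231831 to 82232236), 4.89 (82229033 to 82229133), 3.14 (82235961 to 82236061) and 1.31 (82237760 to 82238718). The FDR ran the other way, from 0.0437 at the highest fold, the weakest of all 61 peaks, through 0.00851 and 0.000407 to 9.55e-05 at the lowest fold. The peak with a fold of 4.89 overlapped one annotated start, and the peak with 10.1 spanned another near its 3′ edge. Its 6 summits had −log10 q of 32.4, 29.3, 28.8, 9.98, 5.99 and 3.76, and 66 protein-coding genes had at least as many. The strongest, at 82235923, lay 149 bases after a further start and 38 bases from the block with a fold of 3.14. The summit of 28.8, at 82239136, lies where SLC16A3 and CSNK1D overlap.

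The SLC16A3 summit of 9.98, at position 82236666, lay 2 bases before the microRNA hairpin MIR6787, which the RefSeq table places on the plus strand at chr17:82236668-82236728. Its sequence is shown because it is the RNA next to a summit, with the 10 bases nearest to the summit in capitals.
MIR6787: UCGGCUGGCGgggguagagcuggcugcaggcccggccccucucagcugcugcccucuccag
The nearest MetDiff block was 607 bases away. The hairpin MIR6737 in SLC39A1 was 115 bases from a block, and MIR6775 in SLC7A5 was 1512 bases from the nearest summit. SLC16A13, the other gene of the family with a peak, had a fold of 2.86 (chromosome 17, 7038845 to 7039818, FDR 0.00427) and no summit. SLC16A1 (MCT1) had neither kind of peak.

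**Figure D3:**
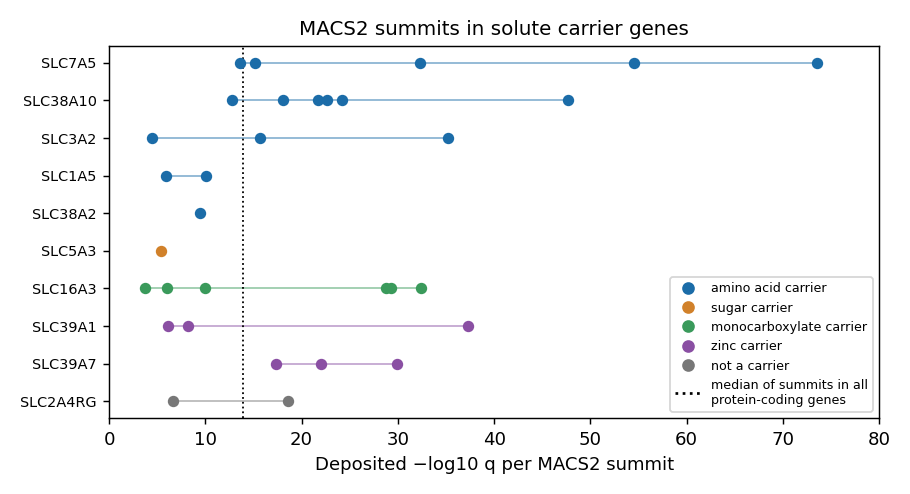
Deposited −log10 q of every MACS2 summit in the 10 genes with one, 1 point per summit and 1 line per gene, coloured by class, with a dotted line at 13.9, the median of summits in all protein-coding genes. SLC7A5 reaches 73.6, and all points of SLC1A5, SLC38A2 and SLC5A3 lie left of the dotted line.

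The zinc carriers held the highest fold of all these genes. SLC39A7 (ZIP7, which releases zinc from the endoplasmic reticulum) had peaks on chromosome 6 with folds of 15.2 (33201193 to 33201343, FDR 0.000525), 4.79 (33202698 to 33203007, FDR 0.00617) and 2.91 (33203691 to 33204040, FDR 0.000851). Of the 4266 genes with a peak, 299 (7.01%) reached 15.2. Its 3 summits lay 19, 69 and 0 bases from a block, in the same order along the gene, with −log10 q of 17.3 (33201174), 22.1 (33202841) and 29.95 (33203841). The lists thus marked the same 3 places in SLC39A7, but fold fell from the 5′ to the 3′ place while −log10 q increased.

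SLC39A1 (ZIP1, a zinc importer of the plasma membrane) had 4 peaks on chromosome 1 under 2 Ensembl gene IDs. The pair with the highest folds, 11.5 (153962556 to 153963601, FDR 3.80e-05) and 9.74 (153962535 to 153962784, FDR 1.70e-05), overlapped, so the 4 peaks describe 3 places. The strongest of its 3 summits, with −log10 q of 37.2 at 153962773, lay inside the latter peak. The other peaks had folds of 5.20 and 2.28, and the other summits −log10 q of 8.20 and 6.06. SLC39A3 (ZIP3) on chromosome 19 likewise had 4 peaks at 3 places, with folds of 10.6 (2737309 to 2737409) and 10.1 (2737335 to 2739999) where they overlapped and 1.94 and 1.41 near the 3′ end, and no summit.

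With SLC39A3, 7 of the 24 zinc carriers had MetDiff peaks alone, and 15 had neither kind of peak. Over all 20050 protein-coding genes these counts were 2648 and 15506. SLC39A4 (ZIP4, the intestinal zinc importer) had folds of 8.17 (chromosome 8, 144415913 to 144416112, FDR 2.69e-05) and 3.14. Both places also lie in the uncharacterised RNA gene LOC124902041. SLC39A13 (ZIP13) had 4 peaks on chromosome 11 with folds of 5.33 (47411942 to 47412091), 4.36, 3.81 and 2.00 and an FDR of at most 8.32e-05, yet no summit. SLC39A11 had a fold of 3.59, SLC39A14 (ZIP14, which also carries iron and manganese) 2.23 and SLC39A9 1.86. SLC30A5 (ZnT5, which loads zinc into the early secretory pathway) was the only SLC30A gene with a peak. That peak lay 84 bases after its start (chromosome 5, 69094098 to 69094298), at a fold of 3.86 (FDR 9.55e-09). SLC30A1 (ZnT1), the zinc exporter of the plasma membrane, and SLC39A6 and SLC39A10 had none.

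The 75 genes with neither kind of peak included other well-known carriers. Among them were the cystine carrier SLC7A11, the cationic amino acid carrier SLC7A1, the glutamine carrier SLC38A1 and the lysosomal arginine sensor SLC38A9. The glucose carriers SLC2A3 and SLC2A4 and the glutamate carriers SLC1A1, SLC1A2 and SLC1A3 also had none. Of the genes outside the carriers, SLC2A4RG had summits with −log10 q of 18.6 and 6.68 (chromosome 20, 63740340 and 63742220) and no MetDiff peak, SLC7A6OS had the minus-strand peak described above, and SLC30A4-AS1 had neither.

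Along the genes, more peaks lay at the 3′ end of the span than at the 5′ end. Of 53 peaks on the strand of a gene whose strand the table gives, 17 (32.1%) had their midpoint in the last 10% of the span and 7 (13.2%) in the first 10%, against 29.3% and 16.1% of 7910 such peaks in all protein-coding genes. Of the 32 summits, 11 (34.4%) lay in the last 10% and 3 (9.38%) in the first, against 21.3% and 16.6% of 2813 summits. These 11 came from 6 genes, with 4 in SLC7A5, and summits of 1 gene are not independent points. Within the first 150 bases after an annotated start lay 3 summits (9.38%, against 8.64%), those of SLC7A5, SLC3A2 and SLC16A3.

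**Figure D4:**
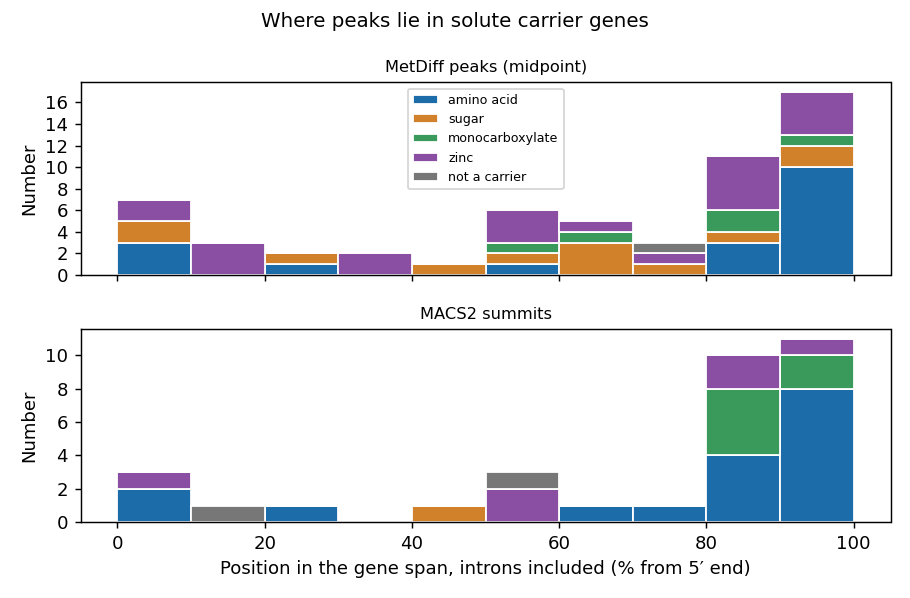
Number of MetDiff peaks (upper panel, 57 peaks not on the opposite strand, by midpoint) and MACS2 summits (lower panel, 32) in each 10% of the gene span, introns included, from the 5′ end to the 3′ end, coloured by class. The last 10% holds 17 peaks and 11 summits.

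The positions of the lists were compared next. Of the 32 summits, 4 lay inside a MetDiff exon block (12.5%), in SLC1A5, SLC7A5, SLC39A1 and SLC39A7, against 19.0% of summits in protein-coding genes. Within 150 bases of a block lay 16 (50.0%, against 66.1%), and the median distance was 153 bases, against 75. The distance was over 2000 bases for 9 summits in 6 genes, SLC3A2, SLC2A4RG, SLC38A2, SLC5A3, SLC1A5 and SLC38A10. The difference from other genes was not tested.

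Genes that act with the carriers were set beside them as lists, to be read against the 21.3% of all protein-coding genes with a MetDiff peak and the 9.46% with a summit. Of 13 partners and regulators of carrier proteins, MetDiff marked 6 (46.2%) and MACS2 marked 3 (23.1%). BSG (basigin), the chaperone that brings SLC16A1 and SLC16A3 to the plasma membrane, had 5 peaks and 4 summits, of which the strongest had a fold of 8.51 and a −log10 q of 40.1. ITGB1, an integrin that binds the CD98 heavy chain, reached a fold of 6.82 and a −log10 q of 52.9. CD44 had a summit of 21.6 alone. Of 43 genes of amino acid sensing by mTORC1, MetDiff marked 21 (48.8%) and MACS2 8 (18.6%). Among them, the highest fold of a peak was 27.3 in TSC2, an inhibitor of the pathway, 15.2 in FNIP2 and 13.6 in RPTOR, the mTORC1 scaffold, while MTOR itself had 4.12. Of 28 enzymes that meet the carried sugar, lactate or amino acids, MetDiff peaks were found in 7 (25%), near the background, and summits in 6 (21.4%). LDHA and LDHB, which interconvert lactate and pyruvate, had folds of 2.48 and 2.86 and summits of 32.2 and 30.6, and the arginine synthesis enzyme ASL had 10.9. None of the 15 genes of zinc buffering and response, among them the metallothioneins and MTF1, had a peak in either list. The lists are short, and no difference from the background was tested.

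The labelled cell type was set against marker genes in the same lists, where 21.3% of all protein-coding genes had a MetDiff peak. Of 8 ductal epithelial markers, 5 had a MetDiff peak (CDH1, KRT8, KRT18, KRT19 and SOX9), and EPCAM, KRT7 and MUC1 had neither kind of peak. Among 4 mesenchymal markers known from PANC-1, CDH2, NES and VIM had a peak and FN1 had none. Markers of acinar cells (6), islets (4) and immune cells (5) had no peak, and of 6 stellate and fibroblast markers COL1A1 alone had one. With so few markers and that background, the absence of peaks from a list of 4 to 6 genes does not set a cell type apart. A peak list shows where the antibody signal was called and is no measure of RNA level.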

How the data were processed

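The 12 libraries were mapped to 4 groups by their titles. STAR 2.7.1, MACS2 2.2.5 and the GRCh38 genome are named in the submitters' processing notes, without settings, pooling or the libraries behind each list. Neither list has a header. The authors deposited for each MACS2 summit a value taken as −log10 of q, and for each MetDiff peak a p-value, an FDR as log10 and a ratio taken as the fold of IP over input; the reading of that ratio is not settled by the file. These lists hold no counts, so depth and precision per library are unknown.

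Genes were taken from the RefSeq table (GRCh38.p14, protein-coding, placed on a chromosome) by symbol, and peaks were joined to spans by position with Python 3.11.15, pandas 2.3.3 and numpy 2.4.6. Strand came from the RefSeq promoter table, which gave it for 82 of the 104 genes. MetDiff IDs could not be paired with symbols. The counting was tested on simulated data. The members and lists were chosen with earlier results of these data known. Genes were named by a rule: the 5 with the highest fold and the 5 with the highest −log10 q of each class, those with both kinds of peak, those with 3 or more MetDiff peaks, and well-known members without peaks; any other member with a peak may be named. Other genes came from the lists, with examples chosen after their values were seen. No statistical test was run, because no value belongs to a library.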

Additional observations from a re-analysis of the deposited data

How the results depend on the processing

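Of 32 alternatives, 25 left a count within 1.5 times or a value unchanged. Counting only peaks that lie in 1 gene lowered the sugar families from 7 to 4 genes with a MetDiff peak and from 1 to 0 with a summit, through overlaps of SLC5A2, SLC5A3 and SLC5A10 with other genes. A −log10 q of at least 10 also left 0 of them with a summit. The median of the highest fold, 5.33, became 5.09 with an FDR under 0.01, 5.495 without peaks listed on the strand opposite the gene, an alternative chosen after seeing the data, and 4.015 with the median fold of each gene in place of the highest. Allowing 150 bases around a block raised the summits that met one from 4 to 16 of 32. MetDiff peaks were found in 21 to 27 of the 104 genes and summits in 8 to 10 under all settings run. The planned count by Ensembl ID was not run, because no table used here pairs those IDs with symbols. No paired analysis was possible because the lists hold no value per library, and for the same reason no replicate could be left out. Depth is unknown, so a gene without a peak may be one that the depth could not show.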

Other observations

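Genes with several MetDiff peaks lacked a summit about as often here as elsewhere. Of the 10 genes with 3 or more MetDiff peaks (9.62% of the 104, against 6.74% of all protein-coding genes), SLC2A11, SLC5A6, SLC5A10, SLC39A3 and SLC39A13, 5 in all, had no summit. Among all 1352 protein-coding genes with 3 or more peaks, 655 (48.4%) had none. These counts take every listed peak inside the span, on either strand. In SLC5A10, 3 of the 4 peaks are on the opposite strand, and the 3 peaks of SLC2A11 describe 2 places. Of the 27 genes with a MetDiff peak, 29.6% also had a summit, against 37.9% of all genes with a peak.

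Some peaks share their significance. Of the 61 peaks, 13 (21.3%) carry the same p-value and FDR as another peak of the same Ensembl ID while their folds differ, and 19.4% of all 9585 MetDiff peaks do so. In SLC38A10, the peaks with folds of 6.20, 2.57 and 2.51 all have an FDR of 0.000234.

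A further peak crossed the 3′ edge of the SLC16A3 span on the minus strand (chromosome 17, 82239930 to 82242784) with a fold of 7.67 and was not counted. That strand is opposite SLC16A3, and CSNK1D overlaps SLC16A3 near this end. Among the other SLC genes, the highest folds were those of the SLC35E1 gene (27.0), the sodium-potassium-chloride cotransporter SLC12A2 (21.6) and SLC29A4 (19.0), and the riboflavin carrier SLC52A2 had the strongest summit, with −log10 q of 82.5. These genes were chosen after their values were seen.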
